A study of Mus musculus with 39 samples.

Results

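Fibroblasts from mouse lung were exposed in culture to C1q at 1 or 10 µg/ml, and RNA collected after 24 h was compared with RNA collected after 2 h at the same doses. C1q is the recognition subunit of the first component of complement. The 12 libraries compared are those that the labels give these doses and times, of 39 in the series: 3 libraries at each dose and time, so 6 at 24 h and 6 at 2 h, with both doses given equal weight. Cells came from lungs of wild-type C57BL/6 mice by digestion, and cells positive for EpCAM, CD146, CD31, Ter119 or CD45 were removed on magnetic columns. They were passaged, kept without serum for 24 h and then given C1q in 24-well plates, as were the 3 libraries at 100 µg/ml for each time, while 3 libraries of untreated cells carry the time 0 h. All groups were of the same genotype and strain, and no group here combined a time in culture of 2 h or 24 h with no C1q. Time after the addition of C1q, time in culture without serum and the action of C1q therefore cannot be told apart in this comparison. The labels do not say whether the 3 libraries of a group came from separate cultures or animals. A p-value here sets a difference against the scatter of libraries within groups, estimated over all 39 libraries. That scatter may be technical.

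Quiescent fibroblasts given a stimulus switch on immediate early genes within minutes to hours, mostly transcription factors such as the NR4A, EGR and FOS families whose messengers are short-lived. Growth factors, chemokines and inhibitors that dampen ERK signalling follow, and are in turn shut off. Fibroblasts held without serum leave the cell cycle and turn to a programme of matrix proteins, complement factors and binding proteins that is known from resting tissue fibroblasts. A pair of adhesion-linked regulators is often read from transcripts: SRF, whose sites are CArG boxes, and YAP with its DNA-binding partner TEAD.

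From 2 h to 24 h, most or all genes tested fell in the lists of immediate early factors, ERK feedback and contraction. The same held for the lists of S phase, mitosis, sterol synthesis and ribosome biogenesis. Most genes tested rose in the lists of complement, small leucine-rich proteoglycans, interferon-induced genes and adventitial fibroblast markers. The test called a gene where the adjusted p of edgeR's quasi-likelihood test was under 0.05. Of 14419 genes tested, 3602 were called higher at 24 h (25.0%) and 3716 lower (25.8%), together 7318 (50.8%), and these shares are the background against which each list below is read. A log2 difference here is 24 h minus 2 h, and its median over all genes tested was 0.05. Changes of at least 2-fold were called for 773 genes upward (5.36%) and 600 downward (4.16%). The 6 libraries at 24 h lay wholly above the 6 at 2 h for 1435 genes (9.95%) and wholly below for 2068 (14.3%). Levels are CPM, the usual count unit relative to library size, with TMM scaling, and the counts are the authors'. The 12 libraries held 1999841 to 2956523 counts each, so 1 CPM stood for 2.00 to 2.96 counts.

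1 library stood apart. At 1 µg/ml and 24 h, replicate 3 differed from the other 2 of its group by a chi-square per degree of freedom of 8.03 and 8.48, against 1.31 to 4.34 for the other replicate pairs of the series, and lay at -24.4 on the second component of the 12 libraries (8.22% of the variance), where the others of its group lay at 17.9 and 21.4. The first component (51.2%) parted the times. Without that library 7032 genes were called, and 6676 of the 7318 calls were kept in the same direction. The column headings of this library and of the 3 of 10 µg/ml at 24 h are spelled differently from those of all libraries at 2 h. The 3 libraries of 100 µg/ml at 24 h share that other spelling. What the spelling marks is not stated. It is uneven between doses at 24 h, so the comparisons of doses below hold it too, and its part in them was not tested. With the 2 libraries of 1 µg/ml at 24 h and 3 at 2 h that share a spelling, 4298 genes were called. The 24 genes with the largest rises and falls by the rule below were all called in the same direction. They were chosen with these same libraries, so their 24 calls are no separate check on the spelling. The unnamed locus LOC118568312 took 6.10 to 7.74% of counts at 2 h and 8.38 to 11.6% at 24 h, and leaving it out gave 7357 calls.

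The largest falls were those of Nr4a3, Fosl1 and Ereg, and the largest rises those of Clec3b, Osr2 and Bmf, by a rule that asked for a mean of at least 3 on the log2 CPM scale, a call kept on leaving out each of the 12 libraries in turn and no overlap of the libraries. Genes under that level, such as Fosb and Has1 below, could fall further without being counted here. In RefSeq's annotation of GRCm38.p6, Nr4a3 lies on chromosome 4, 48045078 to 48086447, Fosl1 on chromosome 19, 5447698 to 5455938 and Ereg on chromosome 5, 91074617 to 91093649. Clec3b lies on chromosome 9, 123150946 to 123157432, Osr2 on chromosome 15, 35296098 to 35303305 and Bmf on chromosome 2, 118528757 to 118549686. The plot of single libraries shows 11 of the 12 largest falls and the 12 largest rises beside untreated cells.

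**Figure D1:**
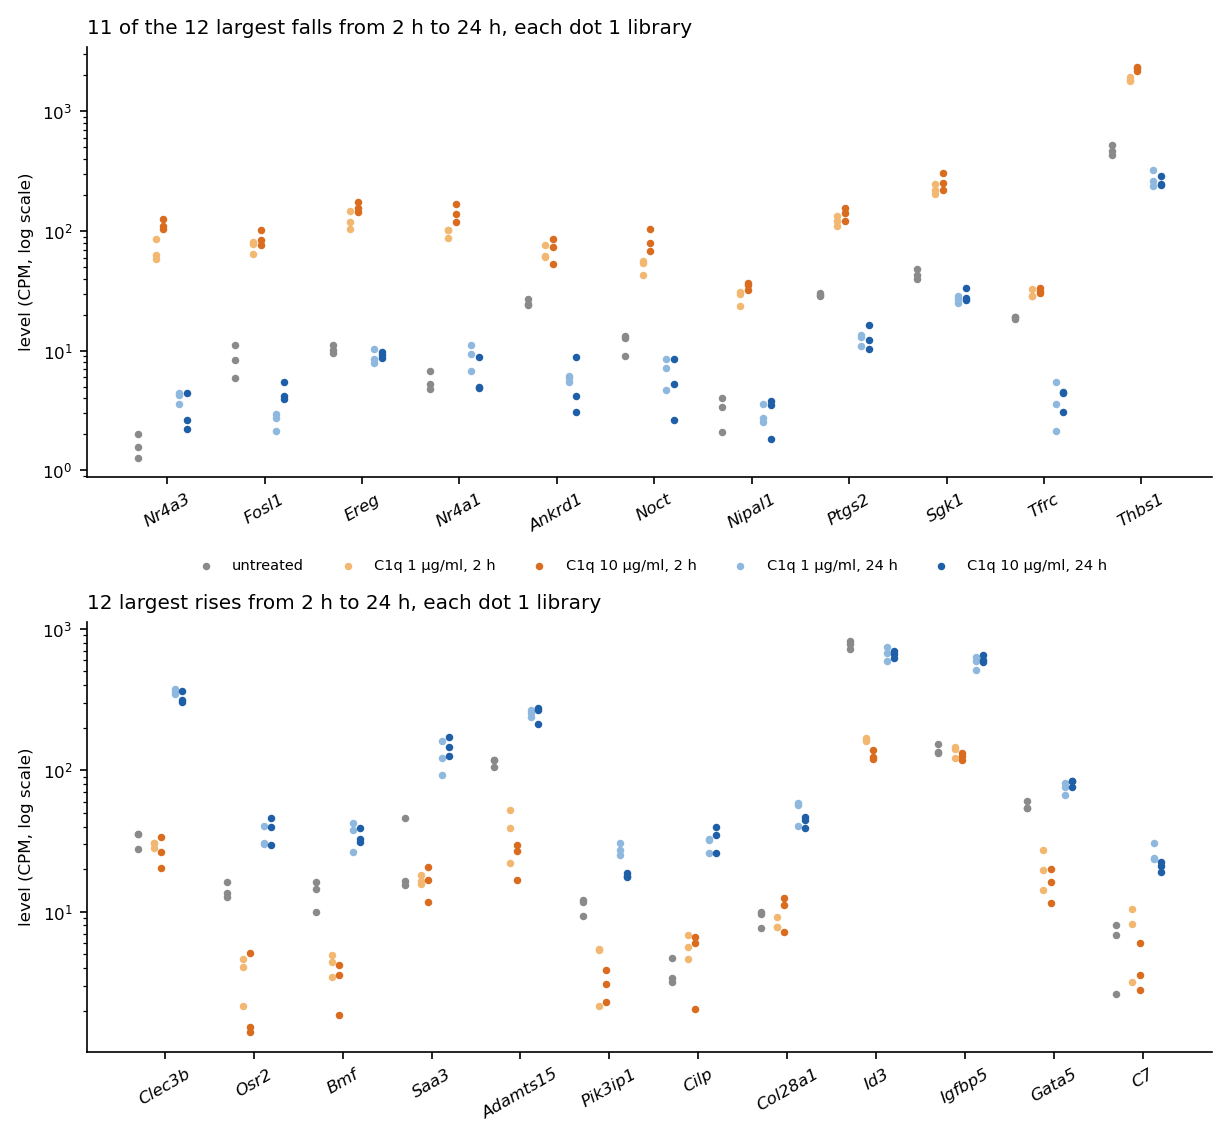
Level (CPM, log scale) of 11 of the 12 genes with the largest falls and of the 12 with the largest rises from 2 h to 24 h; each dot is 1 library, coloured by dose and time, with the 3 untreated libraries in grey. For every gene shown the 6 libraries at 24 h (blue) lie apart from the 6 at 2 h (orange), as the rule required.

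Among immediate early transcription factors, 22 of 24 genes tested were called lower at 24 h, 1 higher and 1 neither, with a median log2 difference of -1.25. Nr4a3, an orphan nuclear receptor, ranged from 57.8 to 126 CPM at 2 h (median 95.3) and from 2.20 to 4.41 CPM at 24 h (median 3.91). Its log2 difference was -4.60 ± 0.15 (SE), the largest fall by the rule (edgeR adjusted p = 3.19e-29), and untreated cells held 1.62 ± 0.365 CPM (SD, n = 3). The relative Nr4a1 fell from a median of 110.2 to 7.79 CPM (log2 difference -3.94 ± 0.18), with no overlap of the libraries. Fosl1, the FRA1 subunit of AP-1, ranged from 64.5 to 102 CPM at 2 h (median 79.2) and from 2.15 to 5.51 CPM at 24 h (median 3.46). Fosb fell from a median of 29.1 to 1.23 CPM (log2 difference -4.47 ± 0.25), and Egr3, a zinc finger factor, fell from a median of 28.3 to 3.95 CPM (log2 difference -2.87 ± 0.20). Fos itself went the other way: its level was 6.79 to 9.80 CPM (median 7.66) at 2 h and 11.7 to 15.3 CPM (median 13.4) at 24 h, a rise of 0.75 ± 0.15 on the log2 scale, beside 15.1 ± 0.999 CPM in untreated cells. Klf2, a factor of the Krüppel family, was the member not called, with a median of 25.3 CPM at 2 h and 22.5 CPM at 24 h (log2 difference -0.17 ± 0.13, edgeR adjusted p = 0.274). In bulk RNA, fewer cells of a type and less RNA per cell cannot be told apart, here and below.

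Of 6 ligands and receptors of the EGF receptor family tested, 4 were called lower, the receptor gene Egfr among them, 0 were higher and 2 were called neither way. Ereg, which encodes epiregulin, ranged from 104 to 174 CPM at 2 h (median 146) and from 7.81 to 10.4 CPM at 24 h (median 8.94), a log2 difference of -3.94 ± 0.12 (edgeR adjusted p = 6.38e-30). Untreated cells held 10.3 ± 0.878 CPM, within the range at 24 h. Hbegf, another ligand, fell from a median of 78.0 to 26.2 CPM (log2 difference -1.67 ± 0.12), Areg fell from a median of 3.12 to 0.909 CPM (log2 difference -1.93 ± 0.45), and the receptor gene Egfr fell from a median of 153 to 101 CPM (log2 difference -0.64 ± 0.06). Of 18 feedback genes tested, which restrain ERK signalling, 14 were lower and none was higher, with a median log2 difference of -1.02. Errfi1, an inhibitor of the EGF receptor, ranged from 494 to 719 CPM at 2 h (median 563) and from 66.7 to 87.0 CPM at 24 h (median 80.4). The dual-specificity phosphatases Dusp5, Dusp4 and Dusp6 had log2 differences of -2.84 ± 0.16, -2.71 ± 0.18 and -2.26 ± 0.11. All libraries at 24 h lay below all at 2 h for these 4 genes.

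Of 18 cytokines and chemokines tested, 10 were lower and 5 higher, beside 25.8% and 25.0% of all genes tested. Ccl2, which attracts monocytes, ranged from 255 to 310.3 CPM at 2 h (median 299) and from 42.9 to 60.4 CPM at 24 h (median 55.6) (log2 difference -2.45 ± 0.09), and Ccl7 fell from a median of 157 to 32.6 CPM (log2 difference -2.18 ± 0.11). The IL-6 family cytokines Il11 and Lif fell from a median of 59.0 to 11.2 CPM (log2 difference -2.49 ± 0.13) and from a median of 80.9 to 16.7 CPM (log2 difference -2.33 ± 0.12). Cxcl13, a B cell chemokine, rose at low levels, from a median of 0.973 to 3.95 CPM (log2 difference 2.12 ± 0.42), with no overlap. In the prostaglandin list, 5 genes were higher and 5 lower of 13. Ptgs2, the inducible cyclooxygenase, ranged from 109 to 156 CPM at 2 h (median 128) and from 10.2 to 16.5 CPM at 24 h (median 12.6), a log2 difference of -3.34 ± 0.11, and ended below the 29.5 ± 1.03 CPM of untreated cells. The prostaglandin E receptor genes Ptger1 and Ptger3 rose by 1.39 and 1.28 on the log2 scale, to medians of 21.5 and 30.6 CPM. Saa3, an acute-phase serum amyloid A gene, was among the largest rises: it ranged from 11.8 to 20.8 CPM at 2 h (median 16.6) and from 91.9 to 172 CPM at 24 h (median 137), a log2 difference of 3.03 ± 0.22, while 1 of the 3 untreated libraries stood above the others (26.0 ± 17.6 CPM).

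Most hyaluronan genes fell. The synthases Has1 and Has2 fell from a median of 9.76 to 0.782 CPM (log2 difference -3.63 ± 0.35) and from a median of 63.0 to 16.3 CPM (log2 difference -1.94 ± 0.10). Tnfaip6, whose product modifies hyaluronan in inflamed tissue, ranged from 59.4 to 72.6 CPM at 2 h (median 63.4) and from 7.16 to 9.18 CPM at 24 h (median 8.59). Cd44, the main hyaluronan receptor, fell from 180.2 to 231 CPM (median 210.1) to 80.0 to 95.99 CPM (median 89.5), a log2 difference of -1.21 ± 0.07. Over the list, 7 of 10 genes were lower and 3 higher.

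Targets of YAP and TEAD and genes of contraction fell. Of 21 YAP and TEAD targets tested, 17 were lower and 1 higher (median log2 difference -0.52). All 23 contractile and cytoskeletal genes tested were lower, 21 of them with no overlap of the libraries, at a median log2 difference of -0.85. Their promoters and those of cell cycle genes were searched for short motifs, and stretches of 4 are shown here because they hold the motif of the factor each list is named for or known to answer to. The sequences are RefSeq's for GRCm38.p6, in 5′ to 3′ direction of the gene, with matches to the TEAD site GGAATG (or its reverse complement) or to the CArG box in capitals:
Ankrd1 (chr19:36119947-36120069, minus strand): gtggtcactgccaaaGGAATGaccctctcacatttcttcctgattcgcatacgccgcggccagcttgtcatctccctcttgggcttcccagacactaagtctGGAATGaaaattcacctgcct
Ccn1 (chr3:145650068-145650103, minus strand): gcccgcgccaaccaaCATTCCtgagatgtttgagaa
Vcl (chr14:20929156-20929195, plus strand): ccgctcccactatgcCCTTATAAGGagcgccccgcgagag
Actg1 (chr11:120348561-120348600, minus strand): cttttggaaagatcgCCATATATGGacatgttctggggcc
The TEAD site was present in 53.3% of the 15 promoters of YAP and TEAD targets that fell, in 40.9% of the 22 promoters of contractile genes that fell, and in 14.7% of all 32851 promoters of the table (12.7% of the promoters of all genes tested, which is the value in brackets for each motif below). The CArG box was present in 18.2% of the contractile promoters, in 22.7% of the 22 promoters of immediate early factors that fell, and in 1.63% of all promoters (1.34%). Promoters are counted here and not genes, since some genes held more than 1 and others none. The genes with a promoter were 14 of 17 YAP and TEAD targets, 20 of 23 contractile genes and 16 of 22 immediate early factors that fell. Both strands were searched, no match shown overlaps another, and a match is a description of the letters and not a bound site.

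Ankrd1, a muscle ankyrin repeat protein and YAP target, with 2 matches in the stretch shown, ranged from 53.2 to 85.7 CPM at 2 h (median 68.0) and from 3.07 to 8.81 CPM at 24 h (median 5.68). Its log2 difference was -3.599 ± 0.16 (edgeR adjusted p = 1.89e-23), and the level at 24 h lay below the 25.3 ± 1.69 CPM of untreated cells. The matricellular genes Ccn1 and Ccn2 fell from a median of 229 to 50.4 CPM (log2 difference -2.21 ± 0.10) and from a median of 444 to 76.4 CPM (log2 difference -2.58 ± 0.08), also to below untreated levels of 137 ± 7.83 and 183 ± 22.8 CPM. F3, the gene of tissue factor, which starts coagulation, fell from a median of 182 to 63.5 CPM (log2 difference -1.44 ± 0.08).

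Vcl, which encodes vinculin of focal adhesions and holds a CArG box in its promoter, fell from a median of 171 to 73.2 CPM (log2 difference -1.20 ± 0.09). Actg1, cytoplasmic gamma-actin, fell from a median of 3935 to 1801 CPM (log2 difference -1.18 ± 0.06), and Acta2, the smooth muscle actin by which myofibroblasts are recognised, ranged from 1141 to 1571 CPM at 2 h (median 1412) and from 573 to 723 CPM at 24 h (median 685). Calponin 1 (Cnn1) fell from a median of 40.1 to 13.1 CPM (log2 difference -1.68 ± 0.16), the largest fall of the contractile list, and smooth muscle myosin Myh11 fell from a median of 16.8 to 7.22 CPM (log2 difference -1.22 ± 0.16). Itga5, the alpha subunit of the fibronectin receptor, fell from a median of 220.5 to 58.6 CPM (log2 difference -1.96 ± 0.08), in a list of integrins where 6 of 15 genes were lower and 2 higher.

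Of 18 TGF-beta ligands, receptors and targets tested, 8 were lower and 4 higher. Inhba, which encodes the activin A subunit, fell from a median of 561 to 113 CPM (log2 difference -2.24 ± 0.08), and Fst, which encodes the activin inhibitor follistatin, fell from a median of 162 to 37.3 CPM (log2 difference -2.01 ± 0.09). The receptor gene Tgfbr2 rose from a median of 277 to 538 CPM (log2 difference 0.94 ± 0.07), with no overlap. Among wound matrix glycoproteins, Thbs1 ranged from 1798 to 2372 CPM at 2 h (median 2057) and from 238 to 323 CPM at 24 h (median 255), a log2 difference of -2.95 ± 0.08, and Tnc fell from a median of 447 to 95.3 CPM (log2 difference -2.23 ± 0.09). Ccn5, a CCN protein that lacks the C-terminal domain of its relatives, rose from a median of 146 to 327 CPM (log2 difference 1.11 ± 0.06). Its untreated level was 201 ± 7.26 CPM. Thrombospondin 1 and tenascin C, the products of Thbs1 and Tnc, are matrix proteins of wounds, and that list held 6 lower and 5 higher genes of 12.

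4 further genes stood among the 12 largest falls. Sgk1, a kinase induced by serum and glucocorticoid, ranged from 206 to 304 CPM at 2 h (median 234) and from 25.1 to 33.4 CPM at 24 h (median 27.3) (log2 difference -3.10 ± 0.09). Noct, a phosphatase of the circadian output, fell from a median of 62.0 to 6.23 CPM (log2 difference -3.40 ± 0.15), and Nipal1, a magnesium transporter gene, fell from a median of 31.4 to 3.11 CPM (log2 difference -3.36 ± 0.22). Tfrc, the transferrin receptor by which cells take up iron, ranged from 28.6 to 33.2 CPM at 2 h (median 31.04) and from 2.12 to 5.43 CPM at 24 h (median 3.99). The iron exporter gene Slc40a1 rose from a median of 13.3 to 40.8 CPM (log2 difference 1.53 ± 0.13), and untreated cells held 20.5 ± 3.92 CPM. The metallothioneins Mt1 and Mt2, which bind zinc, fell from medians of 536 and 409 CPM to 143.4 and 90.5 CPM, log2 differences of -1.88 ± 0.09 and -2.17 ± 0.09.

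Genes of the cell cycle fell without exception in 2 lists: all 19 of S phase and replication and all 23 of mitosis were called lower, with median log2 differences of -1.37 and -1.08. The 24 h libraries lay wholly below those at 2 h for 19 and 21 of these genes. Mitosis genes are known to carry a pair of promoter elements, the CCAAT box and the cell cycle homology region TTTGAA, and replication genes the E2F site TTCCCGC. Stretches of 4 promoters show these letters in capitals, on either strand:
Cdk1 (chr10:69352907-69353135, minus strand): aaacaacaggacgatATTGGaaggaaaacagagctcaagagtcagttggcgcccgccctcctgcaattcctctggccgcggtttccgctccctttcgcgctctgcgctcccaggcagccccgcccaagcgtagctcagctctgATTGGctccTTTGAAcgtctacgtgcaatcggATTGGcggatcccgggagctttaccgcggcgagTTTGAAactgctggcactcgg
Top2a (chr11:99024192-99024431, minus strand): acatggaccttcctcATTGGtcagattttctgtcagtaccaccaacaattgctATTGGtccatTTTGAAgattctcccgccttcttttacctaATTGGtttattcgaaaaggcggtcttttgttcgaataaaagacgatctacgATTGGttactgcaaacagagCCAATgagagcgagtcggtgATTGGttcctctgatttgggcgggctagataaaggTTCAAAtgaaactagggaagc
Kif11 (chr19:37376322-37376383, plus strand): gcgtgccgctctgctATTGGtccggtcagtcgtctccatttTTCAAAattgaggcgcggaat
Mcm3 (chr1:20820272-20820308, minus strand): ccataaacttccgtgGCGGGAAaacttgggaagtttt
Of the 20 promoters of the mitosis genes, 95% held a CCAAT box and 80% the cell cycle homology region, against 37.4% (37.7%) and 17.9% (13.2%) of all promoters. The E2F site was in 46.7% of the 15 promoters of replication genes and in 4.6% of all promoters (7.63% of those of genes tested), and in none of the mitosis promoters (0.00%).

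Rrm2, a subunit of ribonucleotide reductase, ranged from 75.0 to 89.0 CPM at 2 h (median 84.1) and from 17.6 to 23.8 CPM at 24 h (median 22.996), close at 2 h to the 84.0 ± 9.70 CPM of untreated cells. The replicative helicase genes Mcm5 and Mcm3 fell from a median of 63.9 to 17.9 CPM (log2 difference -1.83 ± 0.11) and from a median of 66.4 to 21.6 CPM (log2 difference -1.57 ± 0.12). Top2a, topoisomerase II alpha, fell from a median of 187 to 74.8 CPM (log2 difference -1.36 ± 0.08). Cdk1, the kinase that drives mitosis, ranged from 112 to 145 CPM at 2 h (median 128) and from 41.9 to 60.9 CPM at 24 h (median 53.01), and Kif11, a spindle motor, fell from a median of 59.5 to 22.8 CPM (log2 difference -1.34 ± 0.11). Untreated means were 237 CPM for Top2a, 157 CPM for Cdk1 and 76.3 CPM for Kif11, each above the 2 h median. Of 15 G1 cyclins and CDK inhibitors tested, 6 were lower and 4 higher (median log2 difference -0.04), beside 25.8% and 25.0% of all genes tested. Cdkn1c, a CDK inhibitor of resting cells, rose from a median of 9.54 to 24.9 CPM (log2 difference 1.35 ± 0.15). Its level in untreated cells was 13.7 ± 1.85 CPM.

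Biosynthetic genes fell over several lists. All 37 ribosome biogenesis genes tested were lower (median log2 difference -0.87), for example Nop56, of the snoRNA machinery, from a median of 137 to 48.0 CPM (log2 difference -1.46 ± 0.08), and Ddx21, a nucleolar helicase, from a median of 100.2 to 37.8 CPM (log2 difference -1.36 ± 0.08). Of 24 genes of cholesterol synthesis and uptake, 22 were lower and none higher (median -1.21). Idi1, an isomerase of the pathway, ranged from 273 to 326 CPM at 2 h (median 304) and from 86.8 to 106 CPM at 24 h (median 94.4), a log2 difference of -1.67 ± 0.07. A CCAAT box was in 86.7% of the 15 promoters of those that fell, and the sterol regulatory element TCACNCCAC in 1 (6.67%), against 1.24% of all promoters (1.13% of those of genes tested). All 11 genes of fatty acid synthesis were lower, with Fasn, fatty acid synthase, falling from a median of 293 to 117 CPM (log2 difference -1.29 ± 0.08) and the elongase gene Elovl6 from a median of 219 to 94.9 CPM (log2 difference -1.30 ± 0.07). Genes of sterol efflux went up, 5 of 6 tested: Apoe, apolipoprotein E, ranged from 395 to 442 CPM at 2 h (median 419) and from 909 to 1304 CPM at 24 h (median 1190.4), and Abca1, a cholesterol exporter, rose from a median of 35.3 to 59.2 CPM (log2 difference 0.65 ± 0.10) with some overlap, a call lost among libraries of 1 header spelling (log2 difference 0.32).

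Genes of amino acid supply were lower in 14 of 23 cases and higher in 2. Slc7a1, a cationic amino acid transporter, fell from a median of 97.8 to 28.9 CPM (log2 difference -1.78 ± 0.10), and Psat1 of serine synthesis fell from a median of 275 to 123 CPM (log2 difference -1.20 ± 0.07). Chaperone and unfolded protein response genes were lower in 18 of 22, led by Hspa5, the chaperone BiP, from a median of 1167 to 639 CPM (log2 difference -0.90 ± 0.05). In their promoters the CCACG part of the stress element was found in 86.7% of 15, against 32.8% of all promoters and 44.6% of those of genes tested. Glycolysis and hypoxia genes were lower in 20 of 28 and higher in 4. Hk2, hexokinase 2, ranged from 45.05 to 81.9 CPM at 2 h (median 60.7) and from 7.34 to 13.1 CPM at 24 h (median 10.4), and the glucose transporter gene Slc2a1 fell from a median of 234 to 89.0 CPM (log2 difference -1.44 ± 0.09). Of 17 NRF2 targets, 13 were lower, with Txnrd1, thioredoxin reductase, falling from a median of 489 to 185 CPM (log2 difference -1.35 ± 0.08).

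**Figure D2:**
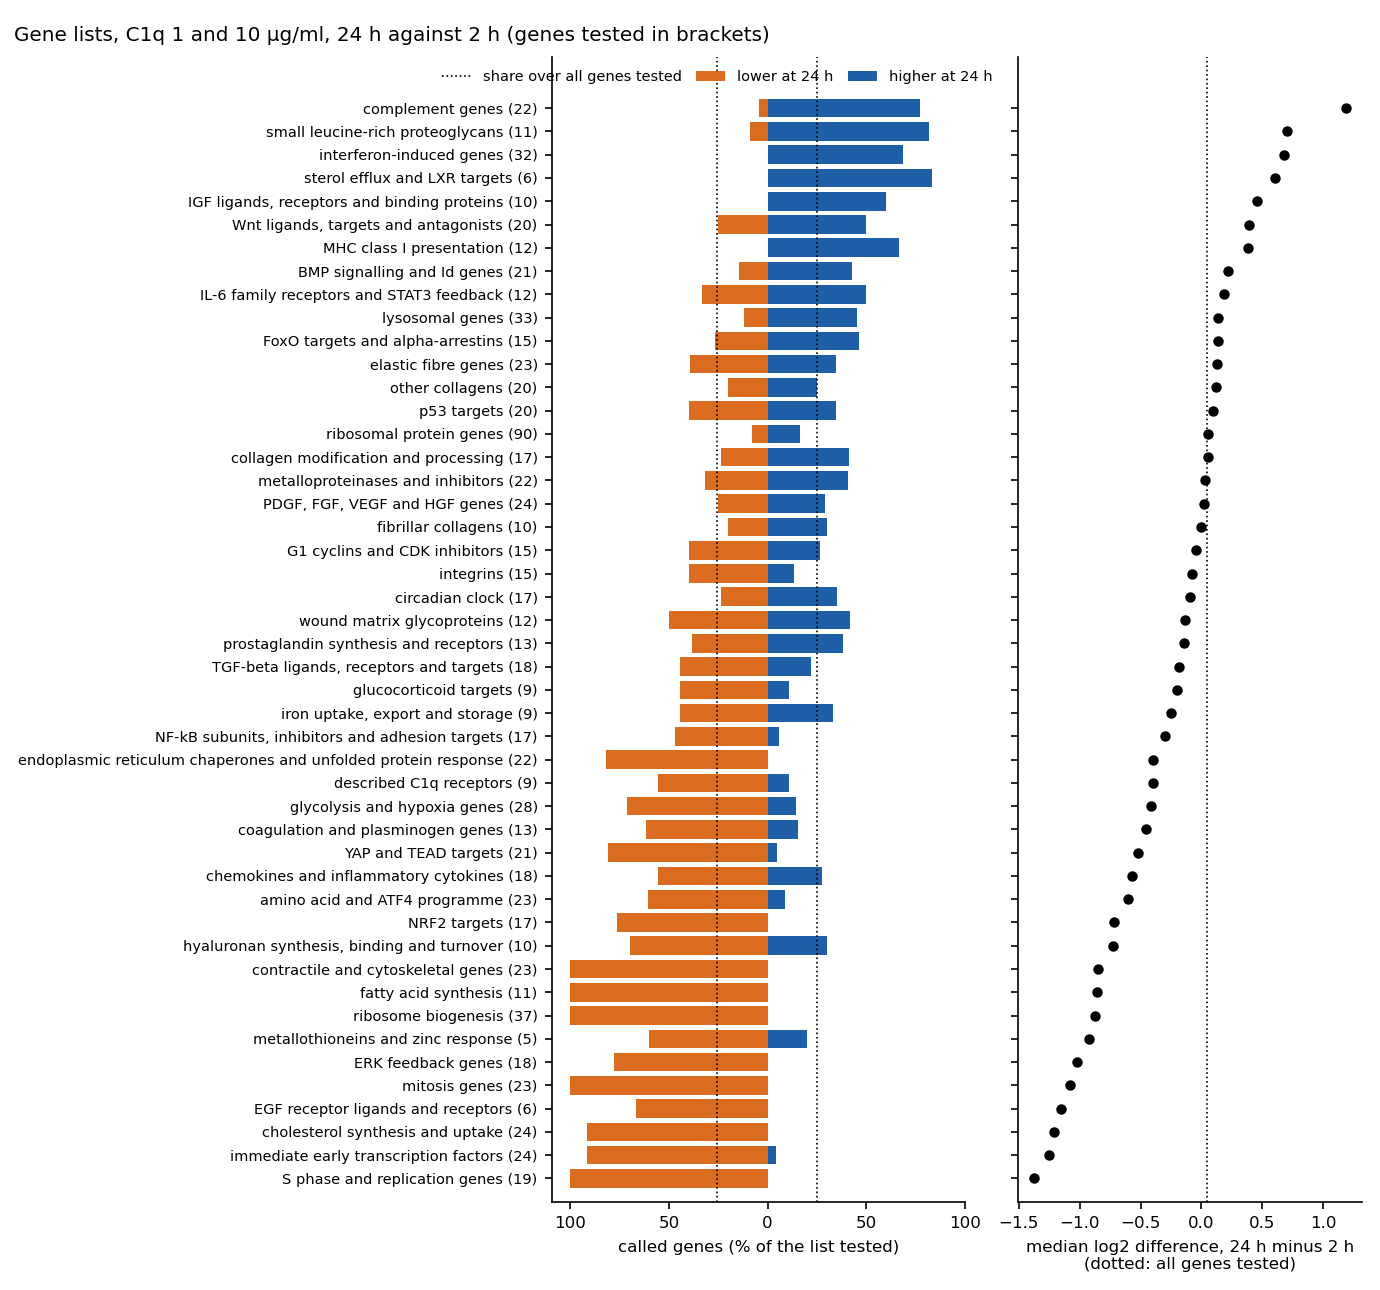
Gene lists with at least 5 genes tested, ordered by median. Left, percent of each list called higher (blue, to the right) or lower (orange, to the left) at 24 h, with dotted lines at the shares over all genes, 25.0% and 25.8%; right, the median log2 difference of each list, with a dotted line at the median of all genes, 0.05. Complement genes stand at the top and replication genes at the bottom.

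Most markers of adventitial and alveolar fibroblasts rose. In the adventitial list 14 of 18 genes were higher and none lower (median log2 difference 0.62), and in the alveolar list 12 of 19 were higher and 3 lower (median 0.52). Clec3b, which encodes tetranectin and marks adventitial fibroblasts, ranged from 20.4 to 33.6 CPM at 2 h (median 29.3) and from 304 to 374 CPM at 24 h (median 354). That was the largest rise by the rule, 3.59 ± 0.08 on the log2 scale (edgeR adjusted p = 8.89e-34), and the 2 h libraries overlapped the untreated level of 32.97 ± 4.40 CPM. Dpt, dermatopontin, rose from a median of 23.6 to 94.8 CPM (log2 difference 1.97 ± 0.09), and Pi16 rose from a median of 3.78 to 9.93 CPM (log2 difference 1.26 ± 0.22) at a low level. Of alveolar markers, Mettl7a1 rose from a median of 116 to 295 CPM (log2 difference 1.34 ± 0.06), the carboxylesterase gene Ces1d from a median of 23.3 to 54.3 CPM (log2 difference 1.21 ± 0.10), and the mesenchymal factor Tcf21 from a median of 31.7 to 62.8 CPM (log2 difference 1.04 ± 0.09). Untreated means were 160 CPM for Mettl7a1, 20.2 CPM for Ces1d and 53.4 CPM for Tcf21. The pan-fibroblast markers, which check the labelled cell type, were all tested and summed to 8735 to 10370 CPM at 24 h and 7463 to 8846 CPM at 2 h.

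Transcription factor and signalling genes made up much of the rest of the 12 largest rises. Osr2, an odd-skipped factor of mesenchyme, ranged from 1.401 to 5.09 CPM at 2 h (median 3.12) and from 29.4 to 45.8 CPM at 24 h (median 35.1), and untreated cells lay between at 14.2 ± 1.85 CPM. Gata5, a zinc finger factor, ranged from 11.6 to 27.2 CPM at 2 h (median 17.98) and from 67.0 to 84.0 CPM at 24 h (median 79.0). Bmf, a BH3-only protein that promotes apoptosis, rose from a median of 3.89 to 35.3 CPM (log2 difference 3.20 ± 0.19), and Pik3ip1, an inhibitor of PI3 kinase, rose from a median of 3.46 to 21.9 CPM (log2 difference 2.56 ± 0.17). Id3, an inhibitor of basic helix-loop-helix factors and a BMP target, ranged from 120.1 to 168 CPM at 2 h (median 150.02) and from 597 to 746 CPM at 24 h (median 666), and the highest library at 24 h lay below the untreated mean of 774 ± 45.1 CPM. In the BMP list 9 of 21 were higher and 3 lower, with the inhibitory Smad6 rising from a median of 8.45 to 22.02 CPM (log2 difference 1.30 ± 0.18). Its untreated level was 17.3 ± 3.67 CPM. In the Wnt list 10 of 20 were higher and 5 lower, with the antagonist gene Sfrp2 rising from a median of 10.5 to 22.7 CPM (log2 difference 1.09 ± 0.14).

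Matrix genes did not move as one. Of 11 small leucine-rich proteoglycans, which coat collagen fibrils, 9 were higher and 1 lower (median log2 difference 0.71). Podn, podocan, ranged from 62.9 to 78.2 CPM at 2 h (median 74.9) and from 218 to 279.5 CPM at 24 h (median 260.5), decorin (Dcn) rose from a median of 347 to 858 CPM (log2 difference 1.30 ± 0.06), and fibromodulin (Fmod) rose from a median of 25.8 to 64.7 CPM (log2 difference 1.33 ± 0.11). Elastic fibre genes were split, 8 higher and 9 lower of 23. Mfap4, a microfibril protein, rose from a median of 193 to 641 CPM (log2 difference 1.73 ± 0.06), and elastin itself (Eln) ranged from 367 to 516 CPM at 2 h (median 478) and from 843 to 1221 CPM at 24 h (median 1062). Of 10 fibrillar collagen genes, 3 were higher and 2 lower, near the 25.0% and 25.8% of all genes tested. Col3a1 rose from a median of 1768 to 2957 CPM (log2 difference 0.69 ± 0.06), while Col1a1 had medians of 1546 CPM at 2 h and 1495 CPM at 24 h (log2 difference 0.03 ± 0.07, edgeR adjusted p = 0.782) and Col1a2 a log2 difference of 0.13 ± 0.06 (edgeR adjusted p = 0.0617). The difference of Col1a1 changed sign on leaving out single libraries. Outside the fibrillar group, Col28a1 ranged from 7.16 to 12.5 CPM at 2 h (median 8.49) and from 39.1 to 58.7 CPM at 24 h (median 45.6) and Col12a1 fell from a median of 401 to 158 CPM (log2 difference -1.27 ± 0.09). Adamts15, a protease that cuts proteoglycans, ranged from 16.9 to 52.3 CPM at 2 h (median 28.1) and from 213 to 274 CPM at 24 h (median 259), and Cilp, a matrix protein known from cartilage, rose from a median of 5.83 to 32.2 CPM (log2 difference 2.54 ± 0.18). Untreated cells held 114 ± 6.69 CPM of Adamts15 and 3.78 ± 0.83 CPM of Cilp.

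Complement genes had the highest median of the lists, 1.19 on the log2 scale, with 17 of 22 genes higher and 1 lower. C3, the central component, ranged from 48.6 to 73.6 CPM at 2 h (median 60.1) and from 145 to 254 CPM at 24 h (median 182) (log2 difference 1.59 ± 0.10). C7 of the membrane attack complex ranged from 2.80 to 10.4 CPM at 2 h (median 4.80) and from 18.9 to 30.5 CPM at 24 h (median 22.9), and Cfi, the protease that inactivates C3b, rose from a median of 2.04 to 9.198 CPM (log2 difference 2.23 ± 0.32). The genes of the 3 C1q chains themselves rose: C1qa from a median of 4.44 to 13.8 CPM (log2 difference 1.39 ± 0.18) with some overlap, C1qb from a median of 11.3 to 27.4 CPM (log2 difference 1.35 ± 0.14) and C1qc from a median of 5.28 to 13.6 CPM (log2 difference 1.36 ± 0.19), both without. These chains are made mainly by macrophages and stand in the macrophage marker list too, whose summed level was also higher at 24 h, as given below. Masp1, a protease of the lectin pathway, fell at low levels, from a median of 4.87 to 1.61 CPM (log2 difference -1.77 ± 0.32). Of 9 genes described as C1q receptors, 5 were lower and 1 higher. C1qbp, a mitochondrial protein also described at the cell surface, fell from a median of 114 to 70.8 CPM (log2 difference -0.69 ± 0.09), and calreticulin (Calr), also counted among the chaperones, fell from a median of 1262 to 895 CPM (log2 difference -0.40 ± 0.06) with some overlap, a call also lost among libraries of 1 header spelling (log2 difference -0.25).

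Binding proteins of IGF, FoxO genes and interferon-induced genes rose in part. Of 10 IGF genes, 6 were higher and none lower. Igfbp5 ranged from 119 to 145 CPM at 2 h (median 129) and from 509 to 649 CPM at 24 h (median 599), a log2 difference of 2.18 ± 0.07, and Igfbp4 rose from a median of 240.4 to 804 CPM (log2 difference 1.76 ± 0.07). FoxO factors, which insulin and growth factor signalling hold out of the nucleus, rose in Foxo1, from a median of 15.2 to 37.9 CPM (log2 difference 1.34 ± 0.15), and Foxo3, from a median of 46.98 to 103 CPM (log2 difference 1.18 ± 0.09), and in their list 7 of 15 genes were higher and 4 lower. Sesn1, a stress-induced sestrin, rose from a median of 11.3 to 37.2 CPM (log2 difference 1.66 ± 0.12). Untreated means were 26.4 CPM for Foxo1, 69.9 CPM for Foxo3 and 31.3 CPM for Sesn1, each between the medians of the times.

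Of 32 interferon-induced genes, 22 were higher and none lower (median log2 difference 0.68). Ifit1 ranged from 8.49 to 14.7 CPM at 2 h (median 10.3) and from 19.7 to 49.4 CPM at 24 h (median 29.1), Rtp4 rose from a median of 7.41 to 23.4 CPM (log2 difference 1.71 ± 0.38), and the antiviral gene Mx2 rose from a median of 0.690 CPM, with a library at 0, to 3.90 CPM. Untreated means were 11.7 CPM for Ifit1, 15.4 CPM for Rtp4 and 2.53 CPM for Mx2. MHC class I genes were higher in 8 of 12 cases. B2m, the light chain, ranged from 401 to 443 CPM at 2 h (median 416) and from 585 to 844 CPM at 24 h (median 685), and the non-classical H2-T23 rose from a median of 19.8 to 42.5 CPM (log2 difference 1.11 ± 0.17). Of 33 lysosomal genes, 15 were higher and 4 lower, led by the cathepsin gene Ctso, from a median of 50.2 to 113 CPM (log2 difference 1.22 ± 0.10). Of 17 clock genes, 6 were higher and 4 lower (median log2 difference -0.10), beside 25.0% and 25.8% of all genes tested. Among the higher ones, Dbp, a clock output factor, ranged from 6.30 to 10.6 CPM at 2 h (median 9.35) and from 24.1 to 31.2 CPM at 24 h (median 28.5), and Per3 rose from a median of 13.1 to 30.5 CPM (log2 difference 1.27 ± 0.14). Untreated cells held 27.1 ± 1.44 CPM of Dbp, within its range at 24 h, and 21.1 ± 3.53 CPM of Per3. The times compared are 22 h apart.

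Transcripts that mark other cell types were counted in all 12 libraries. The plot of marker lists gives their summed levels. Of 17 epithelial markers, 15 were tested, 12 of them lower and none higher, and the list summed to 572 to 716 CPM at 2 h, 287 to 421 CPM at 24 h and 754 to 869 CPM in untreated cells. Krt8, a keratin, ranged from 109 to 169 CPM at 2 h (median 155) and from 47.7 to 73.7 CPM at 24 h (median 67.2), and the cadherin gene Cdh1 fell from a median of 26.9 to 11.04 CPM (log2 difference -1.25 ± 0.16). Scgb1a1, the secretoglobin of club cells, fell from 6.38 to 11.7 CPM (median 9.06) to 0 to 1.47 CPM (median 0.391). Of 18 macrophage and myeloid markers, 17 were tested, 8 of them higher and none lower, with sums of 257 to 314 CPM at 2 h and 363 to 503 CPM at 24 h, so the ranges did not overlap. Tyrobp, a myeloid adaptor, had a median of 7.25 CPM at 2 h and 12.9 CPM at 24 h, and Ptprc, which encodes CD45, a median of 2.72 CPM at 2 h and 3.604 CPM at 24 h and no call (log2 difference 0.54 ± 0.28, edgeR adjusted p = 0.116). Mesothelial markers summed to 263 to 328 CPM and 365 to 482 CPM, with Upk3b, a uroplakin, rising from a median of 70.2 to 114 CPM (log2 difference 0.70 ± 0.08). Mural markers summed to 77.2 to 91.7 CPM and 118 to 153 CPM, and endothelial ones to 82.8 to 105 CPM and 98.1 to 117 CPM. None of the 8 lymphocyte or 4 erythroid markers in the table passed the filter on low counts, and Nkg7 and Hba-a1 were at 0 in all 12 libraries. The part of these cells in the changes of complement, MHC, lysosomal and keratin genes was not tested.

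**Figure D3:**
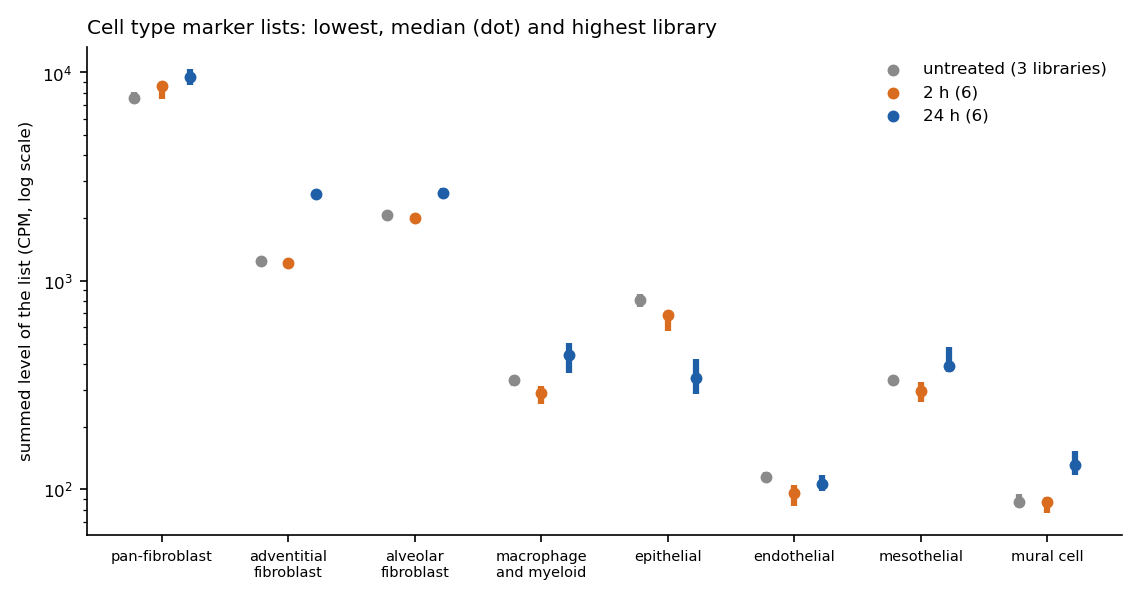
Summed level (CPM, log scale) of each cell type marker list in untreated cells (grey, 3 libraries), at 2 h (orange, 6) and at 24 h (blue, 6); the dot is the median and the bar runs from the lowest to the highest library. Epithelial sums are lower at 24 h than at 2 h, and macrophage, adventitial and alveolar sums are higher, each without overlap.

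At either dose alone the comparison of 3 libraries with 3 called fewer genes: 5208 at 1 µg/ml (36.1%), of which 2330 were higher (16.2%) and 2878 lower (20.0%), and 5525 at 10 µg/ml (38.3%), of which 2570 were higher (17.8%) and 2955 lower (20.5%). Of the 7318 genes called over both doses, 3834 were called in the same direction at each dose. Nr4a3 differed by -4.06 at 1 µg/ml and by -5.15 at 10 µg/ml, Ereg by -3.78 and -4.10, Clec3b by 3.597 and 3.58, and Igfbp5 by 2.09 and 2.28, all on the log2 scale.

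The change itself was called different between 10 and 1 µg/ml for 8 of 14419 genes (0.0555%), all with a lower 24 h minus 2 h difference at the higher dose. At an unadjusted p under 0.05 there were 1078. Has2, the hyaluronan synthase above, differed between the times by -1.44 at 1 µg/ml and by -2.44 at 10 µg/ml, a difference of -0.995 ± 0.20 (edgeR adjusted p = 0.0261). Its means were 57.1 ± 6.74 and 68.9 ± 6.56 CPM at 2 h, and 20.98 ± 1.55 and 12.7 ± 0.541 CPM at 24 h (SD, n = 3). C2cd4c, a C2 domain gene, had the largest difference, -2.84 ± 0.55: its means at 2 h were 35.4 ± 0.829 and 51.0 ± 28.8 CPM, and at 24 h 49.3 ± 27.7 and 9.89 ± 3.52 CPM. The kinase genes Mark3 and Cdk13 differed by -1.14 ± 0.23 and -1.02 ± 0.18, the small GTPase gene Rab12 by -0.93 ± 0.20, and the ubiquitin ligase genes Arih1 and Rnf19b by -0.91 ± 0.16 and -0.90 ± 0.18. These 7 were named after their values were seen, because none of the 8 kept its call on leaving out each of the 12 libraries in turn. Without single libraries the count ran from 2 to 50. It was 50 without replicate 3 and 2 without replicate 2 of the 2 h group at 1 µg/ml, and 5 and 16 without replicates 1 and 2 of its 24 h group. At 10 µg/ml it was 3 without replicate 3 of the 2 h group, and 3, 2 and 2 without replicates 1, 2 and 3 of the 24 h group. A fit of the 12 libraries alone called 0 genes, with 754 at an unadjusted p under 0.05, and DESeq2 on all libraries called 9.

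**Figure D4:**
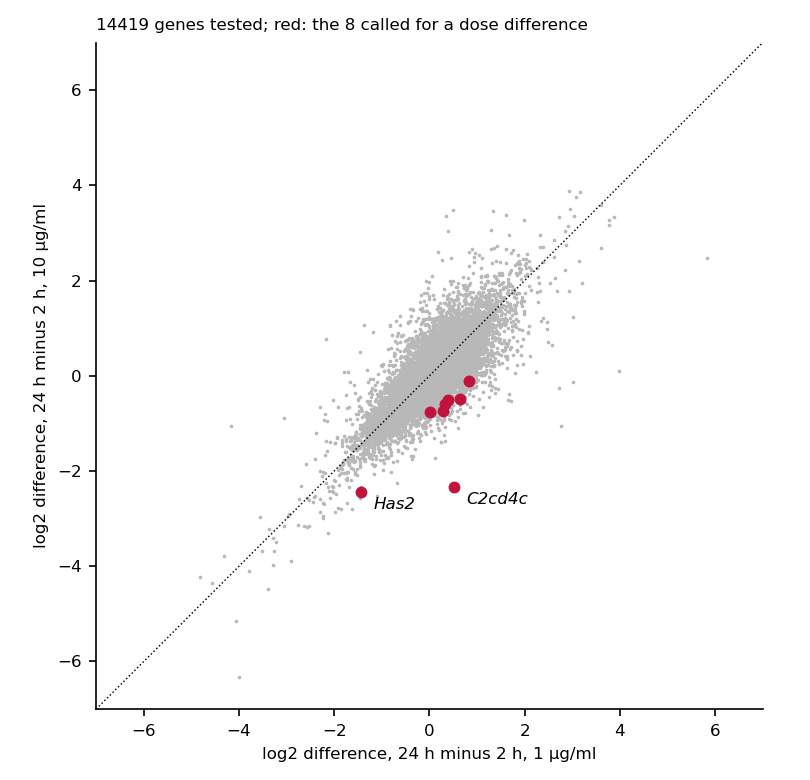
Log2 difference, 24 h minus 2 h, at 10 µg/ml (vertical axis) against 1 µg/ml (horizontal axis), each dot 1 of 14419 genes, with the line of equal values dotted. The 8 genes called for a difference between the doses (red) lie below the line, C2cd4c farthest from it.

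Set against 100 µg/ml, 1282 genes (8.89%) had a different 24 h minus 2 h change, 556 of them with a higher difference at 100 µg/ml (3.86%) and 726 with a lower one (5.04%). At 100 µg/ml itself 5214 genes were called (36.2%), 2407 higher (16.7%) and 2807 lower (19.5%). Several of the largest falls were smaller at the high dose, where levels at 2 h were lower. Ccn1 held 236 ± 34.9 CPM at 1 µg/ml, 237 ± 42.1 CPM at 10 µg/ml and 84.0 ± 8.98 CPM at 100 µg/ml after 2 h, and 51.9, 49.8 and 59.7 CPM after 24 h. Its difference was 1.72 ± 0.18 higher at 100 µg/ml (edgeR adjusted p = 5.89e-09). Ereg followed with 2 h means of 124 ± 22.02, 158 ± 15.04 and 68.9 ± 8.74 CPM (1.59 ± 0.23), and Egr3 with 25.4, 34.6 and 14.3 CPM (1.59 ± 0.39). Tnfsf15, a TNF family cytokine, fell from means of 101 and 103 CPM to 21.5 and 16.01 CPM at the lower doses, while at 100 µg/ml the means were 43.5 and 26.4 CPM (1.72 ± 0.19). Fgd3, an exchange factor of CDC42, had 24 h means of 4.77 and 4.34 CPM at the lower doses and 12.9 CPM at 100 µg/ml (1.97 ± 0.28). Carmn, a noncoding RNA of smooth muscle, was not called at the lower doses, with means of 8.88 and 8.65 CPM at 2 h and 6.62 and 7.68 CPM at 24 h, and had means of 3.57 and 12.7 CPM at 100 µg/ml (2.14 ± 0.41).

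Rises were smaller, or absent, at the high dose for another set. C7 rose to means of 26.0 and 20.8 CPM at the lower doses and stood at 4.68 CPM at 2 h and 5.73 CPM at 24 h at 100 µg/ml (-1.84 ± 0.44, edgeR adjusted p = 0.00416). Frmd5, a FERM domain gene, rose to means of 30.6 and 35.8 CPM at the lower doses and was at 9.12 CPM at 24 h with 100 µg/ml, a difference of -1.56 ± 0.31. Arxes1, an adipocyte-related gene with a near-identical neighbour, differed by -1.87 ± 0.27, and Ankrd55, an ankyrin repeat gene, by -1.53 ± 0.26. The histone genes H2bc4 and H2bc23 differed by -1.42 ± 0.18 and -1.61 ± 0.34; histone H2B genes are much alike in sequence, so their counts are uncertain. Arxes1, H2bc4 and H2bc23 rose at the lower doses, with log2 differences of 1.05, 0.87 and 0.78, against values at 100 µg/ml of -0.82, -0.55 and -0.83.

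By list, 11 of 23 contractile genes and 8 of 21 YAP and TEAD targets had a higher difference at 100 µg/ml, none and 1 a lower one. Over all genes tested, 3.86% had a higher and 5.04% a lower difference, and the lists of this paragraph are read against these shares. Of the cholesterol list, 10 of 24 had a lower difference, so a larger fall, and none a higher one. Of 90 genes matched by the names of ribosomal proteins, 79 had a lower difference at 100 µg/ml, while at the lower doses 15 were higher, 7 lower and the median log2 difference was 0.05, equal to that of all genes at 2 decimals. The comparisons share the 12 libraries of the lower doses.

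**Figure D5:**
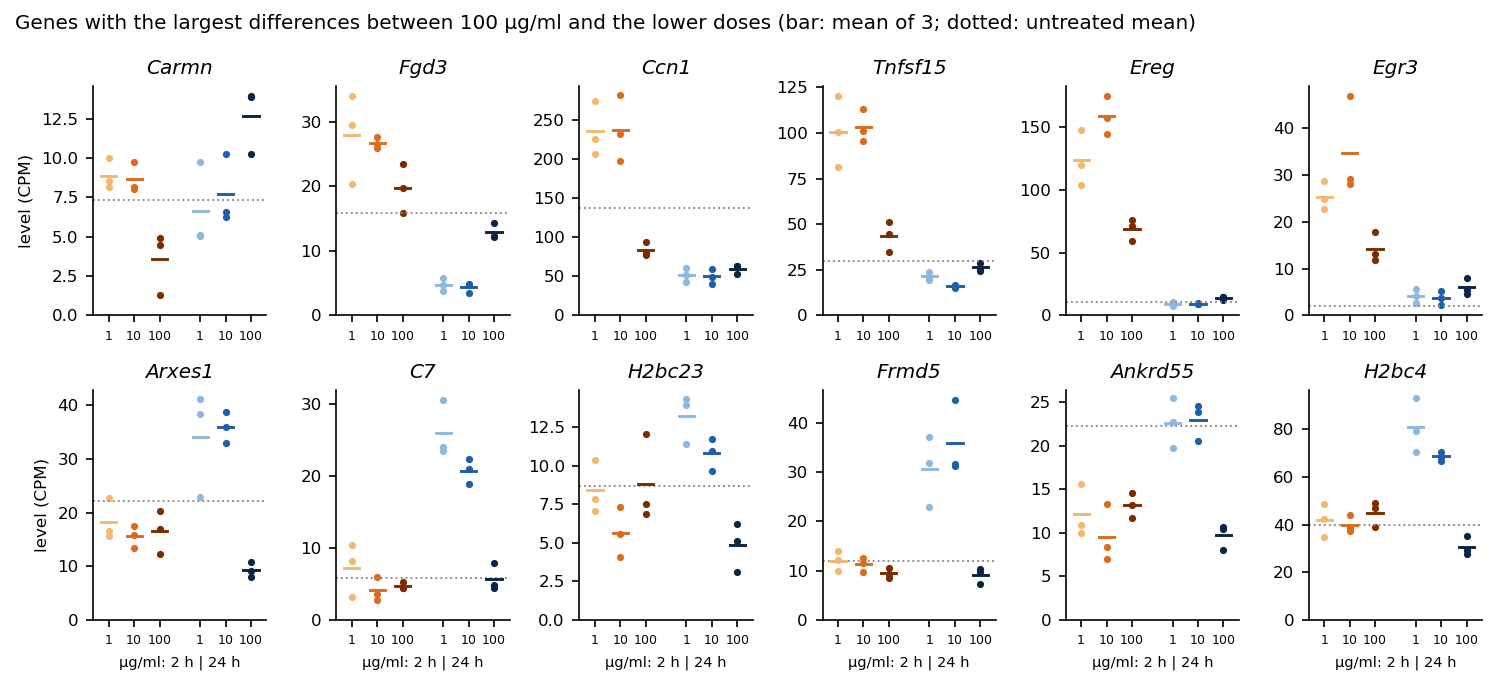
Level (CPM, axes from 0) of the 12 genes with the largest differences of the 24 h versus 2 h change between 100 µg/ml and the lower doses; each dot is 1 library, the bar the mean of 3, the dotted line the untreated mean, with 2 h on the left (orange) and 24 h on the right (blue). In the upper row 5 of the 6 genes fell less at 100 µg/ml and Carmn rose there; in the lower row the lower doses rise and 100 µg/ml stays near or below its 2 h level.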

How the data were processed

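RNA of cultured mouse lung fibroblasts was measured by 5′ sequencing of polyadenylated RNA. The authors deposited a table of read counts per gene, whole numbers with no normalization, for 39 libraries in 13 groups of 3. Reads were handled with cutadapt 2.1.0 and Bowtie2 2.4.2 on GRCm38, as listed per the submitters' processing notes. Not given in the sources used here are annotation, counter, strand setting and any use of molecular identifiers, so reads of overlapping or near-identical genes cannot be assigned further.

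Counts of all 39 libraries were fitted in 1 model with a mean for each group in edgeR 4.0.16 (R 4.3.3): TMM factors, filterByExpr, the quasi-likelihood test and Benjamini-Hochberg adjustment over all 14419 genes tested of 30012, which hold 99.4% of counts. The 4 groups compared held 1999841 to 2956523 counts a library, so 1 CPM is 2.00 to 2.96 counts, and genes near that level are imprecise. The contrast is the mean of both doses at 24 h minus that at 2 h, and SE is the log2 difference divided by the root of F. The named genes are the 12 largest rises and falls with a mean log2 CPM of at least 3, no overlap of libraries and a call kept in every leave-one-out fit, members of the lists with the largest changes, and genes that check a label. Results for some genes are not reported here. The members and lists were chosen with earlier results of these data known. Promoters are RefSeq's, 250 bases before to 50 after the start, 32851 of 27025 genes, of which 11009 of the tested genes matched. A promoter was found for 14 of 19 replication, 19 of 23 mitosis, 14 of 22 cholesterol and 15 of 18 chaperone genes that fell. The motifs shown were chosen after their shares were seen. Alternatives tried were DESeq2 1.42.0, other scaling factors, no filter, a robust fit, other sets of libraries, thinned counts, other thresholds and leaving out each library. The fit was also run on simulated counts in which few genes changed. That run does not cover data where 50.8% of genes are called.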

Additional observations from a re-analysis of the deposited data

Results flagged for a closer look

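Among 276 sets of 6 libraries (138 named genes at 2 h and at 24 h), 13 held a library whose gap to its nearest neighbour passed Dixon's critical value for 6. For independent values of 1 normal distribution, chance gives about 1 in 20. These sets pool 2 doses and share libraries, so that rate is a rough guide. Whether chance gave the 13 was not tested. In the library of 1 µg/ml at 24 h that stood apart, Acta2 was low at 573 CPM (next library 676) and Tnc high at 137 CPM (next 99.5). The second library of 1 µg/ml at 2 h was high for Nop56 (167 CPM, next 140.5) and Hspa5 (1314 CPM, next 1185), and low for Igfbp4 (179 CPM, next 235) and Col1a1 (1163 CPM, next 1532). The second library of 10 µg/ml at 2 h was high for Egr3 (46.8 CPM, next 29.1) and low for Krt8 (109 CPM, next 149.6). The third library of 10 µg/ml was high for C2cd4c at 2 h (83.3 CPM, next 41.7), and at 24 h for Sesn1 (45.5 CPM, next 37.9) and Scgb1a1 (1.47 CPM, next 0.44). The first library of 1 µg/ml was high for Rtp4 at 2 h (11.7 CPM, next 7.80) and for Tyrobp at 24 h (24.4 CPM, next 13.6).

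The change from 2 h to 24 h differed between 10 and 1 µg/ml by a test of the difference for 8 genes, of which 7 are given as the log2 difference at 10 minus that at 1 µg/ml: C2cd4c -2.84, Mark3 -1.14, Cdk13 -1.02, Has2 -0.995, Rab12 -0.93, Arih1 -0.91 and Rnf19b -0.90. The C2cd4c difference includes the high library named above.

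Of the named genes, 57 had a different change at 100 µg/ml than at the lower doses by the test of the difference in edgeR, which called 1282 of all 14419 genes tested (8.89%). The named genes are no fair sample for that share, since 12 of them were named for the largest values of this same difference and others for large changes over time. A higher difference was found for 34 of them. The values, as 100 µg/ml minus the lower doses on the log2 scale, were Carmn 2.14, Fgd3 1.97, Ccn1 1.72, Tnfsf15 1.72, Ereg 1.59, Egr3 1.59, Ccn2 1.59, Ptgs2 1.499, Fosl1 1.34. Those next in size were Dusp4 1.31, Sgk1 1.25, Thbs1 1.16, Ankrd1 1.14, Tfrc 1.14, Mt2 1.02, Itga5 0.99, Has2 0.97. Then came F3 0.97, Errfi1 0.91, Ccl2 0.91, Inhba 0.88, Klf2 0.83, Dusp6 0.76, Ccl7 0.74, Vcl 0.74, Acta2 0.67. The smallest were Cdk13 0.64, Mt1 0.57, Mettl7a1 0.54, Nop56 0.53, Slc7a1 0.52, Slc2a1 0.50, Egfr 0.45, Actg1 0.36. A lower difference was found for 23. Their values were Arxes1 -1.87, C7 -1.84, H2bc23 -1.61, Frmd5 -1.56, Ankrd55 -1.53, H2bc4 -1.42, Bmf -1.38, Igfbp4 -1.24, Col28a1 -1.13. Those next in size were Dbp -0.94, Id3 -0.86, Eln -0.75, Elovl6 -0.71, Adamts15 -0.70, Clec3b -0.59, Calr -0.53, Apoe -0.51, B2m -0.48. The smallest were Podn -0.45, Cdk1 -0.44, Igfbp5 -0.44, Ccn5 -0.43, Col3a1 -0.39. The matricellular genes Ccn1 and Ccn2 and the inhibitor gene Errfi1 belong to the first set, and the binding protein genes Igfbp4 and Igfbp5 and the elastin gene Eln to the second.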

How the results depend on the processing

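No paired analysis was possible because the labels give no replicate numbers that the groups share. The counts of genes called for 24 h against 2 h stayed within 1.5 times of 7318, 5208 and 5525 under the alternatives other than those named next. Asking also for a 2-fold change gave 1373 genes over both doses, 1274 at the lower dose and 1568 at the upper, and libraries of 1 header spelling gave 4298, with fewer samples. Leaving out 1 library gave 6880 to 7164 over both doses, 4344 to 4811 at the lower and 4652 to 4989 at the upper dose. DESeq2 called 6670, 4384 and 4772. The difference between 10 and 1 µg/ml, 8 genes, rested on the setting: 63 with no filter, 0 in a fit of the 12 libraries alone, 0 at an adjusted p under 0.01, 3 with a 2-fold change and 9 in DESeq2. Leaving out 1 library gave 2 to 50: 50 without the third and 2 without the second library of 1 µg/ml at 2 h, 16 and 5 without replicates 2 and 1 of the 24 h group at 1 µg/ml, 3 without the third of 10 µg/ml at 2 h or the first at 24 h, and 2 without the second or the third of 10 µg/ml at 24 h. The difference between 100 µg/ml and the lower doses, 1282 genes, gave 639 at an adjusted p under 0.01, 217 with a 2-fold change, 995 in DESeq2 and 881 to 1620 on leaving out 1 library. Col1a1 changed sign, to -0.0524 with libraries of 1 header spelling, and ran from -0.0455 (without replicate 2 of the 2 h group at 1 µg/ml) and -0.0422 (without replicate 3 of its 24 h group) to 0.0648 on leaving out 1 library; the cause was not tested. For the gene lists, DESeq2, RLE factors and leaving out the locus LOC118568312 were the alternatives run. They covered 24 h against 2 h at the lower doses only. Each median kept its sign except the median log2 difference of fibrillar collagens, which went from -0.0036 to 0.011 without that locus. List counts for the difference at 100 µg/ml, ribosomal protein genes among them, were not rerun under other scaling. The libraries of 100 µg/ml at 24 h had TMM factors of 1.07 to 1.10. The median of all genes was 0.05, 0.04, 0.04 and 0.06 with TMM, DESeq2, RLE factors and without the locus LOC118568312, and 49.2%, 47.5%, 48.4% and 51.1% of calls were higher. Depth limits genes near 1 CPM.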
